A study of Mus musculus with 10 samples.

Results

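GABA-A receptors are the chloride channels through which GABA, the main inhibitory transmitter of the brain, silences neurons. Each receptor is assembled from several subunits, and most combine alpha and beta subunits with a gamma or a delta subunit. GABA binds between alpha and beta subunits, and in receptors with a gamma subunit the kind of alpha subunit decides whether classical benzodiazepines act. In the hippocampus, receptors with gamma subunits carry much of the fast inhibition at synapses, while receptors with the subunits encoded by Gabra5 or by Gabra4 and Gabrd lie largely outside synapses and carry a lasting, tonic inhibition.

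The mRNAs of 7 subunits were followed here, chosen by name from 28871 genes in the table: the alpha subunit genes Gabra2, Gabra3, Gabra4 and Gabra5, the beta subunit genes Gabrb1 and Gabrb2, and the delta subunit gene Gabrd. The table holds 12 further GABA-A subunit genes. The samples were whole hippocampi of male wild-type C57BL/6J mice aged 2 months, and the labels name neither a transgene nor another allele. In 5 Visudyne samples (numbers 3, 6, 9, 12 and 15) the photosensitizer verteporfin was put into the cisterna magna and activated with red light of 689 nm above the skull, to damage lymphatic vessels of the meninges. In 5 vehicle samples (1, 4, 7, 10 and 13) vehicle was given in its place as the control. The procedure was repeated after 2 weeks, and tissue was taken 2 weeks after the last one. Values are estimated counts scaled to the size of the library (CPM), and fold changes are log2, Visudyne minus vehicle. The labels do not say that each sample is a separate animal, so the p-values measure the spread between these samples.

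Libraries held 51165271 to 68895223 estimated counts. Mitochondrial ribosomal RNA made up 17.8% to 20% of them in Visudyne and 18.7% to 21.5% in vehicle samples. Markers of the tissue were present, as all 17 listed genes of dentate granule cells passed the filter on low counts. Of the 12 listed genes of CA1 pyramidal cells with counts, 11 passed. So did the listed genes with counts of thalamus (9 of 9), striatum (8 of 8), choroid plexus (8 of 8) and neocortex (9 of 9). Passing the filter therefore does not tell regions apart. The summed CPM of the choroid plexus list was 26.23 to 53.03 in Visudyne and 28.1 to 219.7 in vehicle samples. It was 121 to 150.2 and 117.7 to 160.1 for thalamus, and 47.59 to 60.48 and 48.8 to 58.56 for striatum. For neocortex it was 146.2 to 188.2 and 143.6 to 189.5. The part of such tissue in the subunit values was not tested. The first principal component of all genes took 41.4% of the variance, with vehicle 1 and Visudyne 15 at its ends. In whole tissue, fewer cells of a type and less mRNA per cell cannot be told apart.

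None of the 7 subunit mRNAs passed the test between Visudyne and vehicle hippocampi. The quasi-likelihood test of edgeR covered 19093 genes, of which 0.0210% passed at an adjusted threshold of 0.05, all of them higher with Visudyne. By unadjusted p at the same threshold, 1 of the 7 subunits (Gabra2) was counted, against 1.70% of all genes (1.14% higher and 0.560% lower), and DESeq2 and limma voom each also counted 1 of the 7 at that unadjusted level and called 0 after adjustment. In each of the 7 genes the 2 groups overlapped, where 0.435% of all genes had groups that did not. Of the 7 fold changes 3 were positive and 4 negative, with a median of -0.010, and the median was 0.0022 over all genes tested and -0.015 over the 9852 genes whose mean log2 CPM reached 3, as that of all members but Gabra2 did. Apart from Gabra2, the 95% intervals of the fold changes ran from -0.28 at the lowest to 0.23 at the highest.

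**Figure D1:**
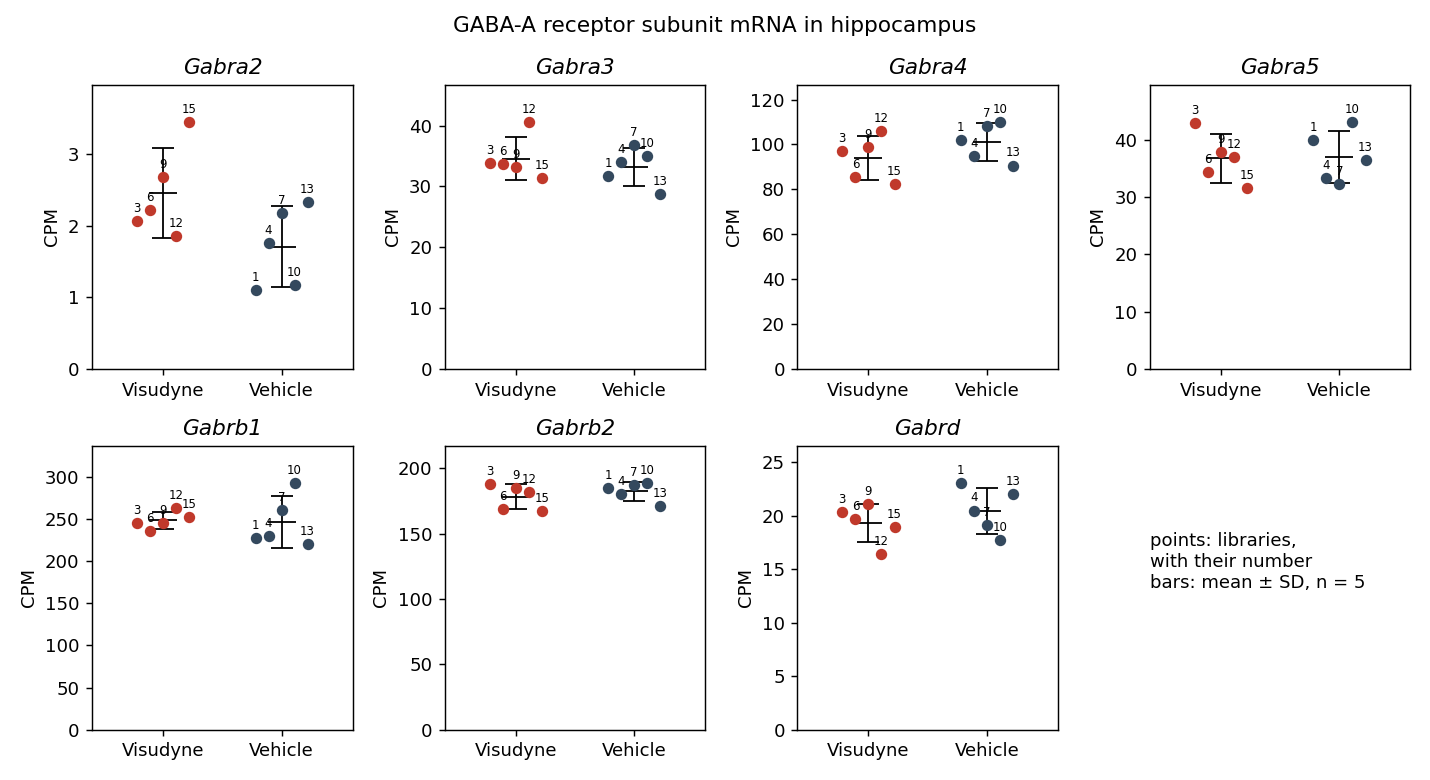
CPM of each subunit mRNA in the 5 Visudyne (red, left) and 5 vehicle (dark blue, right) libraries, each point labelled with its sample number, with bars for mean and SD and axes from 0. The groups overlap in every panel; Gabra2 has the widest relative spread, between 1.10 and 3.45 CPM.

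Per length of exon, Gabrb2 was the most abundant of the 7 mRNAs and Gabra2 by far the least. Levels, in CPM per kilobase (kb) of exon over all 10 libraries, averaged 28.3 ± 1.29 for Gabrb2, 17.9 ± 1.55 for Gabrb1, 16 ± 1.54 for Gabra4 and 12.4 ± 1.40 for Gabra5 (SD, n = 10). They averaged 8.64 ± 0.820 for Gabra3, 6.92 ± 0.684 for Gabrd and 0.273 ± 0.0902 for Gabra2 (SD, n = 10). Neighbours in this order were separate, with no library of one within the range of the other, for Gabrb2 over Gabrb1, Gabra5 over Gabra3, and Gabrd over Gabra2. The ranges of Gabrb1 and Gabra4, of Gabra4 and Gabra5, and of Gabra3 and Gabrd overlapped, although within a library the first exceeded the second in 9, 10 and 9 of 10 libraries. With the longest transcript as the length, Gabra4 (23.7 CPM per kb) stood above Gabrb1 (18.0 CPM per kb), so the order of this pair depends on the length used.

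As a share of the summed level per kb of the 7 mRNAs, Gabrb2 made up 31.3 ± 0.400% in Visudyne and 31.4 ± 0.776% in vehicle samples, and Gabrb1 20 ± 1.10% and 19.4 ± 1.43% (SD, n = 5 each). Gabra4 made up 17.2 ± 0.941% in Visudyne and 18.2 ± 0.609% in vehicle samples, Gabra5 13.8 ± 1.02% and 13.6 ± 1.37%, Gabra3 9.82 ± 0.774% and 9.27 ± 0.662%, and Gabrd 7.53 ± 0.822% and 7.84 ± 1.14%. Gabra2 accounted for 0.362 ± 0.110% in Visudyne and 0.248 ± 0.0905% in vehicle samples. These shares are descriptive and were not tested.

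**Figure D2:**
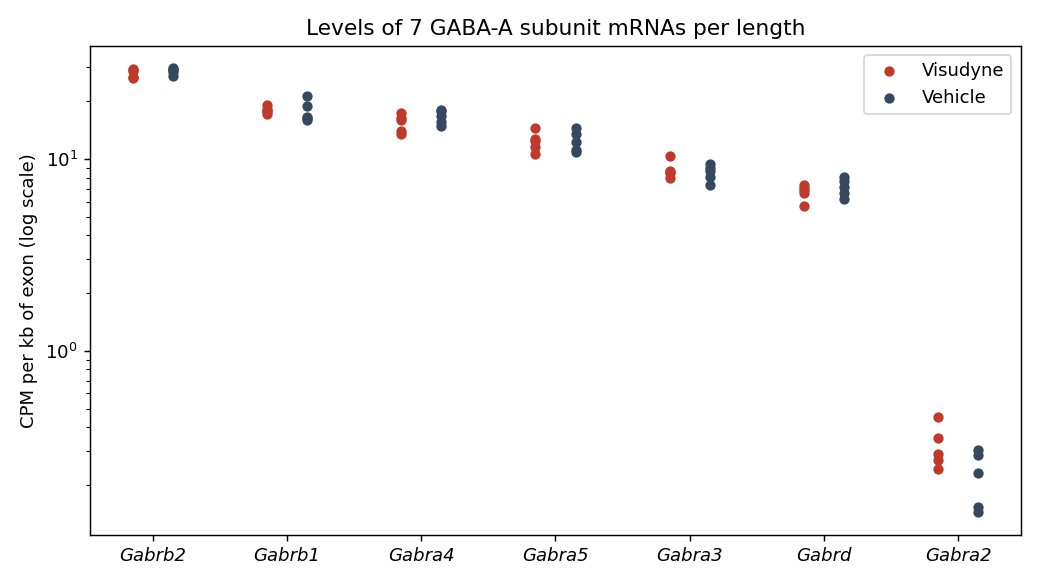
Level of each subunit mRNA in CPM per kb of summed exon length (log axis) in Visudyne (red, left of each pair) and vehicle (dark blue, right) libraries, 1 point per library. The genes other than Gabra2 lie between 5.72 and 29.8 CPM per kb, while Gabra2 lies between 0.144 and 0.452.

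Gabra2 encodes an alpha subunit of benzodiazepine-sensitive receptors that is enriched at the axon initial segment of pyramidal cells. It lies on chromosome 5 (70957597 to 71095849, minus strand, mm10; ENSMUSG00000000560). Its CPM was 2.07, 2.22, 2.68, 1.86 and 3.45 in Visudyne samples 3, 6, 9, 12 and 15, against 1.10, 1.76, 2.18, 1.17 and 2.33 in vehicle samples 1, 4, 7, 10 and 13. Visudyne 9 and Visudyne 15 lay above every vehicle sample and vehicle 1, 4 and 10 below every Visudyne sample, while the others overlapped. The fold change was 0.52 (SE 0.24, 95% interval 0.0013 to 1.04; edgeR unadjusted p = 0.0495, adjusted p = 0.9999). Without vehicle 1 and Visudyne 15 together it was 0.25.

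The values of Gabra2 rest on 59 to 198 estimated counts per library. Its level per kb was 25.4-fold below that of Gabrd, the next lowest of the 7. C57BL/6J mice are known to carry a deletion in an intron of Gabra2 that lowers its mRNA and protein in the brain. All 10 samples are of that strain, and its part in the low level was not tested. The annotation lists 6 transcripts of Gabra2, over which the estimated counts are summed in a way not given in the sources used here.

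Gabra3 encodes an alpha subunit of benzodiazepine-sensitive receptors and lies on chromosome X (72432681 to 72656848, minus strand, mm10; ENSMUSG00000031343). Its CPM was 33.8, 33.7, 33.2, 40.6 and 31.4 in Visudyne samples 3, 6, 9, 12 and 15, against 31.7, 34.0, 36.8, 35.0 and 28.7 in vehicle samples 1, 4, 7, 10 and 13. Visudyne 12 was the highest of all and vehicle 13 the lowest, and the other samples intermingled. Between the groups the fold change was 0.057 (SE 0.08; 95% interval -0.12 to 0.23, edgeR adjusted p = 0.9999).

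Gabra5 encodes the alpha subunit of extrasynaptic receptors that are abundant on CA1 pyramidal cells. It lies on chromosome 7 (57407672 to 57510059, minus strand, mm10; ENSMUSG00000055078). Its CPM was 43.0, 34.3, 37.9, 37.0 and 31.6 in Visudyne samples 3, 6, 9, 12 and 15, against 40.0, 33.3, 32.2, 43.1 and 36.5 in vehicle samples 1, 4, 7, 10 and 13. Vehicle 10 and Visudyne 3 were nearly equal at the top, and the groups covered the same range. This gave a fold change of -0.010 (SE 0.09, 95% interval -0.22 to 0.20, edgeR adjusted p = 0.9999).

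Gabra4, whose product joins with the delta subunit in benzodiazepine-insensitive receptors of dentate granule cells, lies on chromosome 5 (71569749 to 71658308, minus strand, mm10; ENSMUSG00000029211). Its CPM was 97.1, 85.3, 99.0, 106 and 82.3 in Visudyne samples 3, 6, 9, 12 and 15, against 102, 94.9, 108, 110 and 90.6 in vehicle samples 1, 4, 7, 10 and 13. Visudyne 6 and Visudyne 15 lay below every vehicle sample, and the other 3 Visudyne samples fell within the vehicle range. For Gabra4 the fold change was -0.11 (SE 0.08, 95% interval -0.28 to 0.060, edgeR adjusted p = 0.9999).

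Gabrd encodes the delta subunit, which gives receptors high sensitivity to GABA and to neurosteroids. It lies on chromosome 4 (155384980 to 155398112, minus strand, mm10; ENSMUSG00000029054). Its CPM was 20.4, 19.7, 21.1, 16.4 and 19.0 in Visudyne samples 3, 6, 9, 12 and 15, against 23.1, 20.5, 19.1, 17.7 and 22 in vehicle samples 1, 4, 7, 10 and 13. Visudyne 12 was the lowest and vehicle 1 the highest, with overlap between. Its fold change was -0.082 (SE 0.08, 95% interval -0.26 to 0.10, edgeR adjusted p = 0.9999).

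Dentate granule cells are the main hippocampal cells with Gabra4 and Gabrd receptors. Of their 17 listed markers 17 had negative fold changes (median -0.085), 0 passed the adjusted edgeR test, and 4 were lower by unadjusted p, against 0.560% of all genes. Among genes whose mean log2 CPM reached 3, 6135 of 9852 fold changes were negative, and over all genes tested 9339 of 19093. The summed CPM of the list was 997.8 to 1169 in Visudyne and 1047 to 1236 in vehicle samples. Over the 10 samples, the mean log2 CPM of the list had a Pearson's r of 0.352 with Gabra4 and 0.0763 with Gabrd. The adjusted permutation p was 0.526 and 0.912, and with each group centred r was 0.162 and -0.108. The part of these cells in the fold changes of Gabra4 and Gabrd was not tested. Markers of meningeal and perivascular fibroblasts had 15 of 16 positive fold changes. Of the 16, 2 were called, against 0.0210% of all genes, and 10 were higher by unadjusted p, against 1.14% of all genes. The summed CPM of this list was 210.1 to 256.5 in Visudyne and 119 to 210.9 in vehicle samples. The part of these fibroblast markers in the subunit values was not tested. Both marker lists were chosen with earlier results of these data known, so their shares are no independent test.

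Gabrb1 encodes a beta subunit, which forms the GABA site together with an alpha subunit. It lies on chromosome 5 (71658113 to 72149037, plus strand, mm10; ENSMUSG00000029212). Its CPM was 245, 236, 245, 263 and 252 in Visudyne samples 3, 6, 9, 12 and 15, against 227, 230, 261, 293 and 220 in vehicle samples 1, 4, 7, 10 and 13. The Visudyne samples lay close together, while the vehicle samples spread below and above them. Its fold change was 0.011 (SE 0.07, 95% interval -0.15 to 0.17, edgeR adjusted p = 0.9999), and the SD was 9.91 CPM in Visudyne and 30.6 CPM in vehicle samples.

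Gabrb2 encodes the beta subunit of the most common receptors of the brain. It lies on chromosome 11 (42419757 to 42629028, plus strand, mm10; ENSMUSG00000007653). Its CPM was 188, 169, 185, 182 and 167 in Visudyne samples 3, 6, 9, 12 and 15, against 185, 180, 187, 189 and 171 in vehicle samples 1, 4, 7, 10 and 13. Visudyne 6 and Visudyne 15 lay just below the lowest vehicle sample and the rest coincided. The fold change was -0.033 (SE 0.05, 95% interval -0.14 to 0.071, edgeR adjusted p = 0.9999), the narrowest interval of the 7. The biological coefficient of variation was 6.07% for Gabrb2 and 26.9% for Gabra2, with 8.76% to 10.9% for the other 5 and a median of 11.3% over all genes tested and of 7.87% over genes whose mean log2 CPM reached 3.

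**Figure D3:**
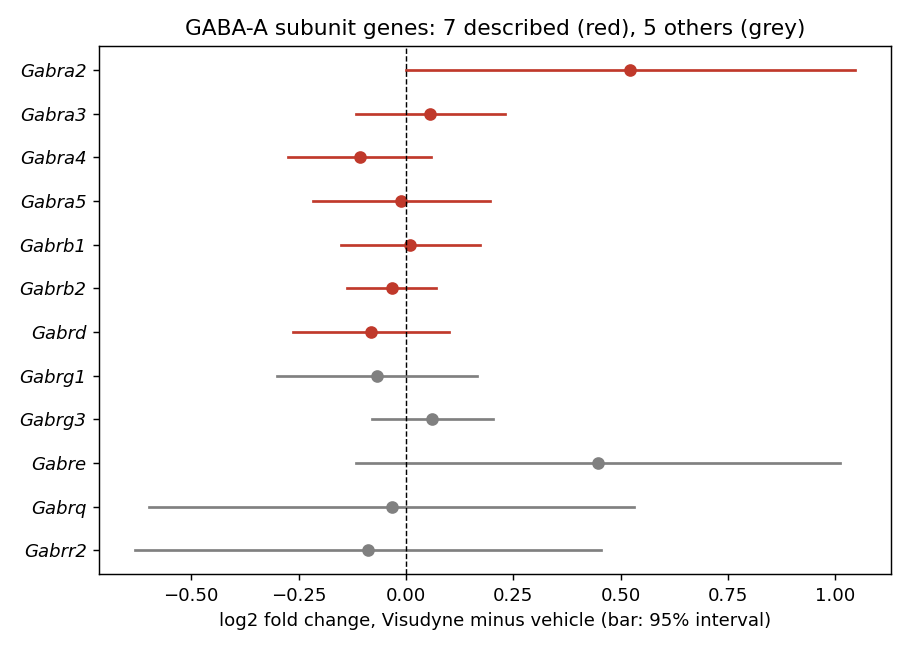
Log2 fold changes (Visudyne minus vehicle) with 95% intervals from the edgeR fit for the 7 subunit genes (red) and 5 other GABA-A subunit genes (grey), the dashed line marking no difference. The intervals of Gabra2, Gabre, Gabrq and Gabrr2, the genes of low level, are the widest, and only that of Gabra2 lies above 0, from 0.0013.

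Gabra2, Gabra4 and Gabrb1 lie close together on chromosome 5, where Gabra4 and Gabrb1 start on opposite strands and overlap by 196 bases, 46 of them exonic in both. Since the overlap lies at their 5′ ends and whether counting used strand is not given in the sources used here, reads from it cannot be assigned with certainty. It covers 0.756% of the exonic bases of Gabra4 and 0.332% of those of Gabrb1. The start regions of these neighbours are shown because they lie head to head, and that of Gabrb2, on another chromosome, because of the 7 its mRNA varied most closely with Gabra4. RefSeq (GRCm38.p6, the assembly of mm10) gives windows of 250 bases before to 50 bases after the start for 6 of the 7 genes. The one not matched is Gabrd. The windows are chr5:71658259-71658558 on the minus strand for Gabra4, chr5:71657671-71657970 on the plus strand for Gabrb1 and chr11:42420190-42420489 on the plus strand for Gabrb2, each that of the RefSeq start nearest to the annotated gene start. The annotated starts of Gabrb1 (71658113) and Gabrb2 (42419757) lie outside these windows, since the RefSeq starts differ. The overlap given above is that of the annotated genes.
Gabra4: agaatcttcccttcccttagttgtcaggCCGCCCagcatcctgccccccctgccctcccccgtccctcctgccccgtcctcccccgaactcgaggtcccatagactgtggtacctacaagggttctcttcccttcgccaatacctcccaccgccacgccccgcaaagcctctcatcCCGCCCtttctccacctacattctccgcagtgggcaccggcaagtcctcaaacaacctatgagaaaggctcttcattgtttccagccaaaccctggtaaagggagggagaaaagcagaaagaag
Gabrb1: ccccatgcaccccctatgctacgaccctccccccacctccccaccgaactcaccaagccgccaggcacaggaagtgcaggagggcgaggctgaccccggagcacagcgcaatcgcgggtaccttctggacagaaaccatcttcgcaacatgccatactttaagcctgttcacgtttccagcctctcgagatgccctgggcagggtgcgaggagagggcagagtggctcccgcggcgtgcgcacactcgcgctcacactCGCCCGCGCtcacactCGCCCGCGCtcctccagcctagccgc
Gabrb2: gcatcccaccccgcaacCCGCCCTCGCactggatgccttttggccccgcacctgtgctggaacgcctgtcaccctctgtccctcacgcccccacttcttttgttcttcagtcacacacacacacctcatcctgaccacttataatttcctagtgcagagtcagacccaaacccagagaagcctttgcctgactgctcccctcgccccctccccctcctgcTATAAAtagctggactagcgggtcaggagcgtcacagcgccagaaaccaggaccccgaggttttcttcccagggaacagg

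Capitals mark the letters of 4 motifs searched on both strands: the GC box GGGCGG, the TATA box TATAAA, the Egr motif GCGNGGGCG and the cyclic AMP response element TGACGTCA. The Gabra4 window holds 2 GC boxes and none of the others. The Gabrb1 window holds 2 Egr motifs and none of the others. The Gabrb2 window holds 1 TATA box, and 1 GC box that overlaps 1 Egr motif. Of 32851 windows of the same length, 35.7% hold the GC box, 13.6% the TATA box, 5.55% the Egr motif and 1.79% the cyclic AMP response element. These windows are rich in G and C, at 58.7% for Gabra4, 66.0% for Gabrb1 and 59.0% for Gabrb2 against a median of 52.7%. Not all matched members share this: the windows not shown had 70.0% for Gabra2, 56.7% for Gabra5 and 39.3% for Gabra3.

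Across the 10 samples and among the 7 genes, Gabra4 varied most closely with Gabrb2, and Gabrb1 ran opposite to Gabrd. These relations were looked for after the data had been examined, over 21 pairs of the 7 genes on log2 CPM, with two-sided permutation tests and Benjamini-Hochberg adjustment. For Gabra4 and Gabrb2, Pearson's r was 0.907 (permutation p = 0.00042, adjusted 0.0088) and Spearman's rho 0.830 (permutation p = 0.0046, adjusted 0.0482). It was 0.908 with each group centred on its mean (exact permutation within groups, p = 0.0029, adjusted 0.0357) and 0.753 without Visudyne 6 and Visudyne 15. The relation passed in each of the 3 tests. Of the 9851 genes compared, 444 or 4.51% had an r with Gabra4 at least as high. The size of r with the first principal component of all genes was 0.723 for Gabra4 and 0.693 for Gabrb2, and the part of that component was not tested.

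Gabrb1 and Gabrd had an r of -0.803 (permutation p = 0.0051, adjusted 0.0533) and a rho of -0.879 (permutation p = 0.0016, adjusted 0.0330). With centred groups r was -0.818 (exact permutation within groups, p = 0.0034, adjusted 0.0357), and it was -0.888 without vehicle 1 and Visudyne 12. This pair thus missed the threshold by the pooled r and passed by rank and with centred groups. Of 9851 genes, 59 or 0.599% had an r with Gabrb1 as low, and r with the first principal component had a size of 0.174 for Gabrb1 and 0.0999 for Gabrd. Gabra3 and Gabrd followed with an r of -0.779 (permutation p = 0.0086, adjusted 0.0605; rho -0.648, permutation p = 0.048, adjusted 0.170), and r was -0.593 without vehicle 1 and Visudyne 12. The head-to-head neighbours Gabra4 and Gabrb1 had an r of 0.538 (permutation p = 0.11, adjusted 0.225; rho 0.564, permutation p = 0.096, adjusted 0.252), which 39.7% of genes reached with Gabra4, and r was 0.283 without vehicle 10 and vehicle 13.

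**Figure D4:**
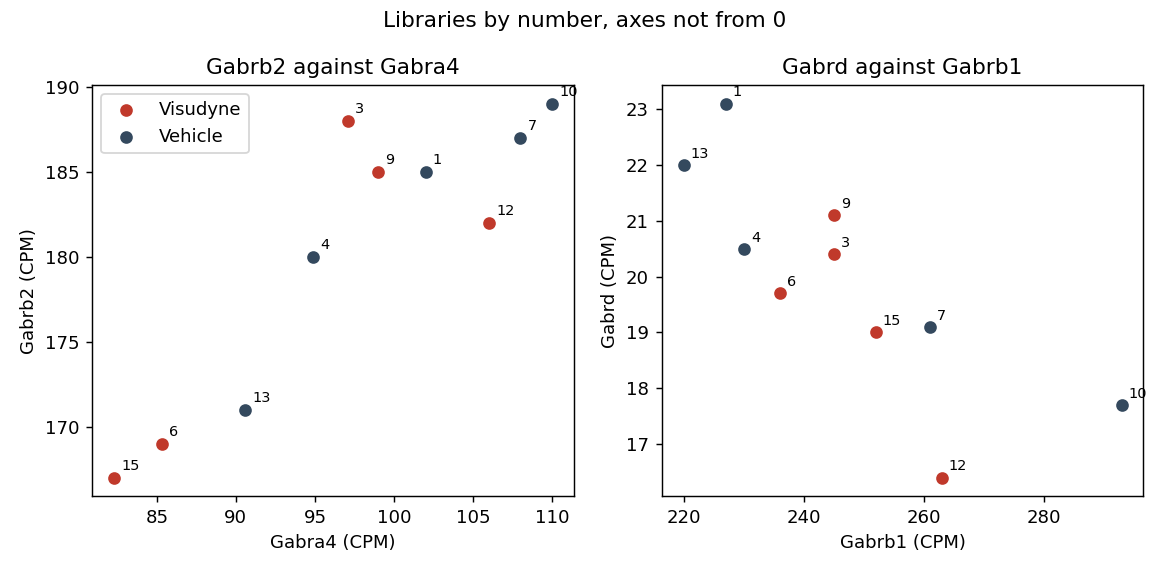
CPM of Gabrb2 against Gabra4 (left) and of Gabrd against Gabrb1 (right) in each library, Visudyne in red and vehicle in dark blue, with sample numbers; axes do not start at 0. Visudyne 15 and 6 and vehicle 13 are low for both Gabra4 and Gabrb2, and vehicle 10 and Visudyne 12 combine the highest Gabrb1 with the lowest Gabrd.

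Relations of the 7 mRNAs with the mean log2 CPM of marker lists were computed for dentate granule cells, CA1 pyramidal cells, interneurons, astrocytes and thalamus, 35 in all. None passed after adjustment in the pooled samples. The strongest by p was Gabra3 with the interneuron list (r = 0.768, permutation p = 0.010, adjusted 0.258, and rho 0.673, permutation p = 0.040, adjusted 0.307). Its r fell to 0.319 without vehicle 13 and Visudyne 12, the 2 samples farthest from the median of that list. Leaving out the extremes of a list narrows its range, so how far the relation rests on these samples was not tested. With each group centred, 1 of the 35 passed: Gabra2 ran opposite to CA1 markers (r = -0.808, exact permutation within groups, p = 6.9e-05, the smallest these permutations can give, adjusted 0.0024). The pooled values for that pair were -0.496 (permutation p = 0.14, adjusted 0.360) and rho -0.588 (permutation p = 0.081, adjusted 0.312), and r was -0.281 without vehicle 13 and Visudyne 15. The CA1 list shares Dcn with the list of meningeal and perivascular fibroblasts, and the relation was not computed without that gene. The centred r of Gabra2 with the interneuron list was larger in size but missed the threshold (-0.839, exact permutation within groups, adjusted p = 0.0547). The pooled values of that pair were -0.646 (permutation p = 0.044, adjusted 0.360) and rho -0.758 (permutation p = 0.015, adjusted 0.307), and r was -0.864 without vehicle 13 and Visudyne 12. Gabra2 had the largest r of the 7 with the first principal component, 0.773 in size, and the part of that component was not tested.

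By group-centred Pearson's r over the 10 samples, among 9851 genes whose mean log2 CPM reached 3 (9852 for Gabra2), these patterns were the closest. Gabra2 was most like Tmem181a (0.968) and Slf2 (0.963), Gabra3 like Srp54a (0.934) and Efcab2 (0.932), and Gabra4 like Dhx36 (0.991) and Armc1 (0.989). Gabra5 was most like Cyth3 (0.943) and Adnp2 (0.939), Gabrb1 like St6galnac5 (0.947) and Cep83 (0.939), Gabrb2 like Zyg11b (0.983) and Asph (0.982), and Gabrd like Fbxw5 (0.971) and Gtf2h4 (0.940). These values are descriptive. Each was picked as one of the 2 highest among that many genes over 10 samples, a search that by itself yields high r.

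Of the 12 other GABA-A subunit genes 8 could be tested, and 0 passed in either direction by edgeR, also 0 by unadjusted p. Their median fold change was -0.045, with 2 positive and 6 negative, where 9339 of 19093 were negative over all genes tested. The gamma subunit gene Gabrg3 measured 2.72 ± 0.178 CPM per kb in Visudyne and 2.60 ± 0.210 CPM per kb in vehicle samples, and Gabrg1, also a gamma subunit gene, 1.26 ± 0.198 and 1.32 ± 0.145 CPM per kb (SD, n = 5 each). Gabre, Gabrq and Gabrr2 averaged below 1 CPM in both groups, with fold changes of 0.45 (SE 0.26), -0.033 (SE 0.26) and -0.088 (SE 0.25).

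Genes that make, package and clear GABA did not pass either: of 9 tested, 0 were called, 8 had positive fold changes, and the median was 0.043. Positive fold changes made up 9754 of 19093 over all genes tested, and 3717 of 9852 among genes whose mean log2 CPM reached 3. The highest in the list was 0.31. This list shares a gene with that of meningeal and perivascular fibroblasts, and the counts were not computed without it. Gad1 and Gad2, which make GABA from glutamate, measured 232 ± 28.8 and 120 ± 20.3 CPM in Visudyne samples, against 235 ± 13.2 and 118 ± 8.08 CPM in vehicle samples. Slc32a1, which loads GABA into vesicles, had the smallest p of the list (29.0 ± 3.61 CPM in Visudyne and 26.7 ± 1.13 CPM in vehicle samples, fold change 0.12, SE 0.08, edgeR adjusted p = 0.9999). The transporter Slc6a11, which takes GABA up mainly into astrocytes, had a fold change of 0.068 (SE 0.06).

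Of 25 genes for the scaffold, assembly and trafficking of GABA-A receptors, 0 were called, with 6 positive and 19 negative fold changes and a median of -0.020. Over all genes tested 9339 of 19093 fold changes were negative. Among genes whose mean log2 CPM reached 3 they were 6135 of 9852, with a median of -0.015. Gphn, which encodes the scaffold protein gephyrin, measured 72.4 ± 4.17 CPM in Visudyne and 74.5 ± 2.13 CPM in vehicle samples (fold change -0.041, SE 0.05). The adhesion protein of inhibitory synapses Nlgn2 had 0.018 (SE 0.04), and Clptm1, which holds back the forward trafficking of GABA-A receptors, had -0.11 (SE 0.09). Of 6 genes of the metabotropic GABA-B receptors and their auxiliary subunits 0 were called and 5 were negative, with a median of -0.034. Gabbr1 measured 599.9 ± 31.7 CPM in Visudyne and 623 ± 27.0 CPM in vehicle samples, and Gabbr2 291 ± 12.6 and 299.5 ± 10 CPM.

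Chloride transporters and their kinases set the driving force of GABA-A channels. Of 10 tested, 0 passed the adjusted test and 1 was higher by unadjusted p (1.14% of all genes were), with 5 positive and 5 negative fold changes and a median of -0.00096. Slc12a5, which extrudes chloride from mature neurons, measured 322 ± 9.35 CPM in Visudyne and 318 ± 16.3 CPM in vehicle samples, and Slc12a2, which takes chloride up, 83.8 ± 7.64 and 83.5 ± 5.76 CPM. The gene counted at the unadjusted level was Slc12a7, a potassium-chloride cotransporter, at 4.19 ± 0.328 CPM in Visudyne and 3.14 ± 0.217 CPM in vehicle samples (fold change 0.42, SE 0.09, edgeR adjusted p = 0.764). Its groups did not overlap, which 0.435% of all genes shared, and the adjusted p of DESeq2, the lowest over its 20 alternatives, was 0.0579. The kinase gene Wnk1 had 0.095 (SE 0.06).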

How the data were processed

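Per the labels' protocols, hippocampal total RNA went into the TruSeq stranded library kit. The deposited table holds estimated counts as whole numbers for 28871 Ensembl genes in 10 samples, and the submitters' processing notes name FastQC, Salmon and mm10. Tool versions, annotation release and the summing of transcripts to genes are not stated there. Salmon shares reads between like transcripts by estimation, and total RNA includes unspliced and noncoding RNA. Symbols, positions and exon lengths came from GENCODE M21 (GRCm38), and 307 identifiers had no symbol.

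Counts were compared by the quasi-likelihood test of edgeR (version 4.0.16, under R 4.3.3), with its default filter on low counts (19093 genes left), TMM, no covariate, Benjamini-Hochberg adjustment and a threshold of 0.05. SEs and 95% intervals were derived from the F statistics. CPM used TMM-scaled totals. Correlations used log2 CPM with a prior count of 2 and 100000 permutations, or all 14400 within groups. Two-sided tests were used throughout. The members and lists were chosen with earlier results of these data known. The genes named are the 7 members, all other GABA-A subunit genes in the table, the 2 genes of smallest p in each pathway list, 11 fixed genes, and the 2 genes most like each member, less 5 that are not reported here. Alternatives were RLE and upper-quartile factors, no filter or 1 CPM in 5 samples, no mitochondrial genes, DESeq2 1.42.0, limma voom 3.58.1 with and without sample quality weights, sample number as covariate, and leaving out samples.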

Additional observations from a re-analysis of the deposited data

Results flagged for a closer look

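Of 54 sets of 5 samples screened (the 27 tested genes named, in each group), 2 held a sample far from the others, and chance flags about 1 in 20 such sets. Both are Visudyne 12. Gabra3 measured 40.6 CPM there, against 31.4 to 33.8 CPM in the other Visudyne samples. Gad2 measured 155 CPM there, against 107 to 116 CPM in the other Visudyne samples.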

How the results depend on the processing

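No paired analysis was possible because the Visudyne and vehicle samples share no replicate number. No member was called under any of the 20 alternatives to the edgeR test, with log2 fold changes of 0.25 to 0.67 for Gabra2, -0.15 to -0.057 for Gabra4 and -0.053 to -0.0031 for Gabrb2, whose directions were kept in all 20. The omission of both vehicle 1 and Visudyne 15 was chosen after the data were examined. The directions of Gabra3, Gabra5, Gabrb1 and Gabrd, none larger in size than its SE, did not hold in every setting. With sample quality weights in limma voom the fold changes were -0.0021 for Gabra3, 0.076 for Gabra5, -0.026 for Gabrb1, 0.0099 for Gabrd, -0.0027 for Gabrg3, -0.056 for Gad2 and -0.0052 for Slc12a2. With sample number as covariate they were 0.0079 for Gabra5, -0.0071 for Gabrb1, 0.0012 for Gad1 and 0.023 for Glra3, and with the filter of 1 CPM 0.00080 for Gabra5. Without both vehicle 1 and Visudyne 15 they were 0.071 for Gabra5, -0.019 for Gabrb1, 0.057 for Gabrg1, 0.058 for Gad1, 0.031 for Glrb and 0.098 for Glra3. Leaving out 1 sample at a time gave -0.0016 to 0.095 for Gabra3 (negative without Visudyne 12), -0.073 to 0.052 for Gabra5, -0.019 to 0.084 for Gabrb1, -0.13 to -0.024 for Gabrd, -0.17 to 0.16 for Gabrq, -0.28 to 0.044 for Gabrr2, -0.084 to 0.026 for Gad1, -0.082 to 0.058 for Gad2, -0.013 to 0.043 for Slc12a5, -0.031 to 0.040 for Slc12a2 and -0.16 to 0.034 for Glra3. The cause of these changes was not tested.

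Over all genes, 4 were called higher with Visudyne and 0 lower. The count called higher was 2 with upper-quartile factors and 2 without mitochondrial genes, 18 with DESeq2, 13 with voom sample weights, 19 with the sample number covariate, 0 to 4 with 1 sample left out (0 without Visudyne 3, Visudyne 6 or vehicle 7, 1 without Visudyne 9, Visudyne 12, Visudyne 15, vehicle 10 or vehicle 13, and 4 without vehicle 1 or vehicle 4), and 1 without both vehicle 1 and Visudyne 15. The count called lower was 0 to 1 with 1 sample left out (1 without vehicle 1) and 1 without both vehicle 1 and Visudyne 15. With the longest transcript as length, levels were 23.7 CPM per kb for Gabra4, 13.8 for Gabra5 and 45.2 for Gabrb2, and shares were 7.86% for Gabra3, 20.1% for Gabra4, 11.7% for Gabra5, 15.3% for Gabrb1, 38.4% for Gabrb2 and 6.27% for Gabrd, as that length changes by construction. Of the marker relations 1 passed with centred groups and 0 pooled. Of the subunit pairs 2 passed with centred groups and 2 by Spearman's rho, against 1 by pooled r. Gabra2 is limited by its 59 to 198 counts per library.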

Other observations

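The subunit genes outside the test rest on few counts. Gabra6 had 1 to 6 estimated counts per library, Gabrr1 2 to 20, Gabrr3 0 to 3 and Gabrp 0 to 2. Glycine receptors, the other inhibitory chloride channels of the brain, were represented by 3 tested subunit genes, of which edgeR called 0, also 0 by unadjusted p. Glrb, the beta subunit that binds gephyrin, measured 175 ± 22.3 CPM in Visudyne and 182 ± 16.1 CPM in vehicle samples (fold change -0.060, SE 0.09), and Glra3, an alpha subunit, 9.21 ± 2.01 and 9.50 ± 1.51 CPM (-0.045, SE 0.15; SD, n = 5 each).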
